A study of Gallus gallus with 6 samples.

Results

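A set of 179 genes, of 17108 counted, had lower RNA levels in chicken neural tube cells under MEK1ca and a higher level again when HOXB8 was added to MEK1ca. MEK1ca is a form of the kinase MEK1 that is always active. The members were chosen from CPM, the counts of a gene divided by the library total and scaled to a fixed sum. A gene was taken when its mean in the control was at least 5 CPM, when MEK1ca stood at 0.67 of the control or less, and when MEK1ca + HOXB8 stood at 1.5 times MEK1ca or more. These ratios were taken after adding 0.5 CPM to each mean, and both MEK1ca libraries had to lie below the 4 others. The low level under MEK1ca and the return with HOXB8 are therefore the rule itself, and they are described here without a test.

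MEK1 phosphorylates and so activates ERK, the last kinase of a pathway by which fibroblast growth factors act on cells. In the caudal end of the vertebrate embryo this signal keeps neural cells immature, and neuronal differentiation begins where it declines. HOXB8 is a homeodomain transcription factor of the HOX family, which gives cells their position along the body axis.

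RNA came from chicken embryos whose neural tube was electroporated at stage HH 11 and from which GFP-positive cells were sorted 18 h later. There were 3 groups of 2 libraries. The control group received the empty vector pCIG at 2 µg/µL, the MEK1ca group 1 µg/µL of pCIG-MEK1ca with 1 µg/µL of pCIG, and the MEK1ca + HOXB8 group 1 µg/µL each of pCIG-MEK1ca and pCIG-HoxB8. Libraries with HOXB8 alone were not analysed here. A reversal of the MEK1ca effect and a rise that HOXB8 gives by itself thus cannot be told apart. The paper divides genes of this pattern into those that HOXB8 alone regulates and those that it does not. Return and coming back below describe RNA levels only. Every group carried the GFP of pCIG and was sorted by it with dying cells excluded. Each value is thus a mean over living transfected cells of several embryos, and GFP does not tell which cells took up both plasmids. The paper calls co-transfection nearly total in this tissue and stage. It assumes that all GFP-positive cells of the MEK1ca + HOXB8 group expressed both. In such bulk RNA, fewer cells of a type and less RNA per cell cannot be told apart.

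Library totals ran from 63637195 to 90460770 counts. The pCIG and MEK1ca libraries are labelled as reanalysed and the MEK1ca + HOXB8 libraries are not. The sources do not say whether all were made together, so that a library batch and the addition of HOXB8 cannot be told apart. Counts between 1 and 10 were almost all even in MEK1ca replicate 2 (99.4%, with 51.8% to 57.0% elsewhere). With this library's counts halved the rule gave the same 179 genes. Halving leaves CPM unchanged but for rounding, so this outcome was fixed in advance. It does not show whether the even counts affect the choice of members. The table names genes by Ensembl identifier and position on galGal4 without a symbol, so the roles of the members, the transgenes and the marker genes of the neural tube could not be looked up. Genes are given by position, and 4 of them also by identifier.

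From the whole table to the members, 9277 genes reached 5 CPM in pCIG, and 474 of these had a ratio of MEK1ca to pCIG of 0.67 or less. Of the 474 repressed genes, 181 also met the ratio of 1.5 with HOXB8, and the separation of libraries removed 2 of them. The 179 members were thus 37.8% of the repressed genes, and 295 repressed genes were not members. At the edge of the first ratio the members closest to the limit had 0.6690, 0.6688 and 0.6673, and the closest genes outside had 0.6703, 0.6705 and 0.6712. At the edge of the second, members had 1.502, 1.505 and 1.506, and genes outside had 1.497, 1.493 and 1.492. At the lower limit on level, members had 5.13, 5.13 and 5.29 CPM in pCIG, and genes outside had 4.88, 4.88 and 4.83 CPM. No gap in the values separates members from the genes beside them.

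Together the members made up 0.525% and 0.554% of all counts in the pCIG libraries. Their share was 0.274% and 0.313% under MEK1ca alone and 0.576% and 0.546% when HOXB8 was added. Their median level was 14.1 and 15.0 CPM in pCIG, 6.87 and 8.60 CPM in MEK1ca, and 17.4 and 15.96 CPM in MEK1ca + HOXB8. The MEK1ca libraries are low by the rule, and the other 4 lie close together. The members were of low level among genes at 5 CPM or more in pCIG, with a median of 15.2 CPM against 49.7 CPM. They still had enough reads to be measured. The lowest count of any member in any library was 74, and the median count per library ran from 437 to 1573. MEK1ca replicate 2 had a lowest count of 104 and a median of 662, but its even counts leave the number of reads behind them uncertain. Scaled to exonic length as TPM, the median member in pCIG had 13.2 TPM and the range was 1.32 to 2992 TPM.

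**Figure D1:**
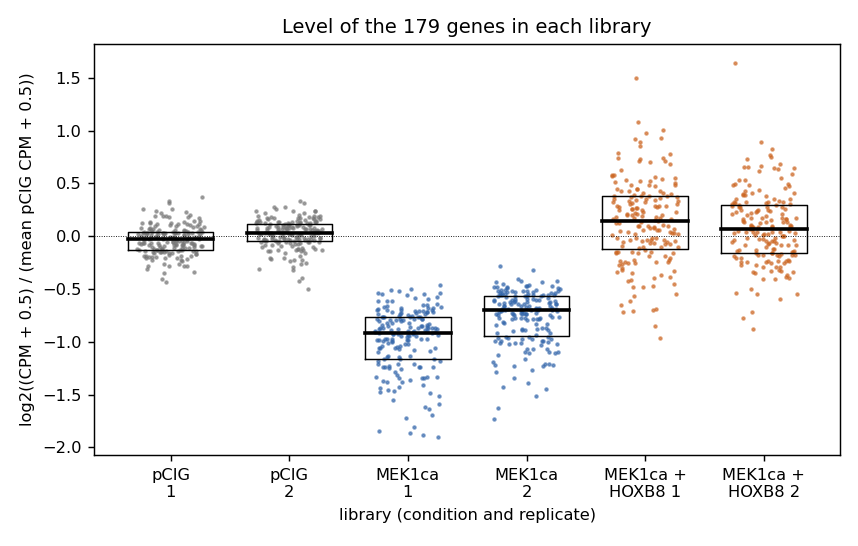
Each point is 1 of the 179 genes in 1 library, plotted as the log2 of its CPM + 0.5 over the pCIG mean + 0.5, with the median as a thick line and the quartiles as a box. The pCIG medians are -0.03 and 0.03, the MEK1ca medians -0.91 and -0.70, and those of MEK1ca + HOXB8 0.15 and 0.07.

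The median ratio of MEK1ca to pCIG was 0.579, with quartiles of 0.492 and 0.624 and a lowest value of 0.346. The median ratio of MEK1ca + HOXB8 to MEK1ca was 1.87, with quartiles of 1.66 and 2.18 and a highest value of 4.66. With limits of 0.5 and 2 in place of 0.67 and 1.5, 20 members were left. The lowest of the 4 other libraries exceeded the higher MEK1ca library by a factor of 1.09 to 2.22, with a median of 1.43.

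Replicates of the same group differed more for members than for the median gene at 5 CPM or more in pCIG, above all under MEK1ca. These genes are more abundant, with a median of 49.7 CPM in pCIG against 15.2 CPM for members, and the part of level in this was not tested. The median ratio of the higher to the lower MEK1ca library was 1.21 for members and 1.07 for all 9277 genes. In pCIG these ratios were 1.14 and 1.07, and in MEK1ca + HOXB8 they were 1.13 and 1.097. MEK1ca replicate 1 lay below replicate 2 in 141 of the 179 members (78.8%), against 54.6% of all genes tested. For pCIG replicate 1 this count was 107 members (59.8%, against 44.7%), and for MEK1ca + HOXB8 replicate 1 it was 77 members (43.0%, against 53.8%). Most members, though not all, were thus lower in MEK1ca replicate 1, and these same values chose the members. The members that the rule finds depend on which MEK1ca library is used. Without MEK1ca replicate 2 the rule gave 347 genes, of which 166 were among the 179, and without replicate 1 it gave 145 genes, of which 112 were.

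All genes were also fitted with edgeR's quasi-likelihood test, after scaling by TMM, which sets libraries to a common level through most of their genes. Of the 17108 genes, 13582 had enough counts to be tested, all 179 members among them. Fold changes from this fit are given on the log2 scale with a standard error, which is the size of the change over the square root of its F statistic. A gene was called changed at a Benjamini-Hochberg adjusted p of 0.01 or less over all genes tested. The libraries that chose the members also give these calls, so nothing can be read from how many members were called.

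In MEK1ca against pCIG, 71 members (39.7%) were called lower, where 1.9% of all genes tested were. Fewer members, and fewer of all genes, were called lower when either pCIG library or MEK1ca replicate 1 was left out. In MEK1ca + HOXB8 against MEK1ca, 111 members (62.0%) were called higher, where 8.74% of all genes tested were. Here too, fewer members and fewer of all genes were called when MEK1ca replicate 1 or MEK1ca + HOXB8 replicate 1 was left out. With all libraries, both calls were made for 59 members and neither for 56. Only the call against pCIG was made for 12, and only the call with HOXB8 for 52. For all genes tested, these classes were not counted. The members called in the first comparison were more abundant than the rest, with a median of 26.2 CPM in pCIG against 9.70 CPM. In the second comparison these medians were 17.7 and 11.3 CPM.

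**Figure D2:**
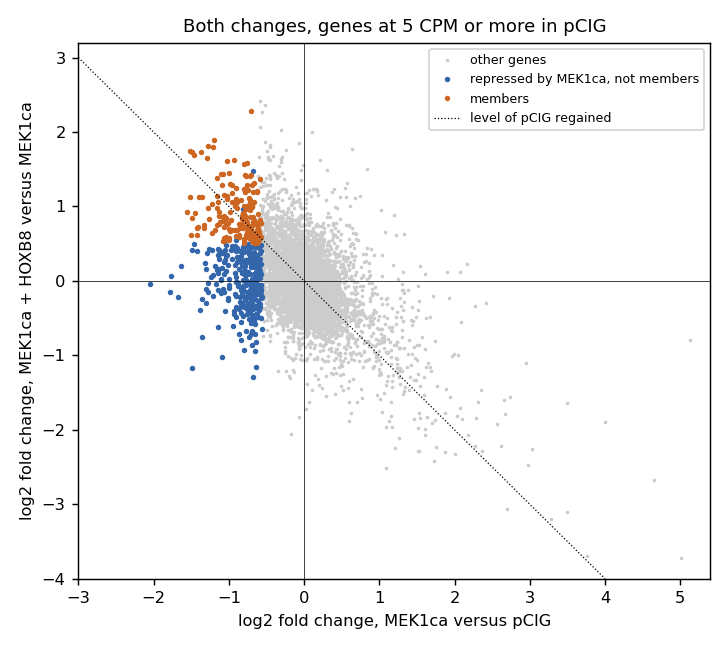
Each point is a gene at 5 CPM or more in pCIG, with its log2 fold change in MEK1ca versus pCIG on the x axis and in MEK1ca + HOXB8 versus MEK1ca on the y axis, and the dotted line marks a return to the pCIG level. The 179 members have medians of -0.80 and 0.84 and lie on both sides of the line, and the 295 other repressed genes have medians of -0.75 and 0.03.

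How far the members came back is best seen against the control. The median log2 fold change of MEK1ca + HOXB8 versus pCIG was 0.02, with quartiles of -0.21 and 0.24, and the median of all genes tested was also 0.02. For the 295 repressed genes outside the set it was -0.79, and their median ratio to pCIG was 0.627. The rule asks both pCIG and MEK1ca + HOXB8 to lie above MEK1ca, which fixes part of this difference. On CPM, 118 members (65.9%) had a ratio of MEK1ca + HOXB8 to pCIG between 0.8 and 1.25, and the median ratio was 1.08. The share of all genes in this range was not counted. For all 9277 genes at 5 CPM or more in pCIG, the median ratio was 1.02, with quartiles of 0.891 and 1.18. Nearness to pCIG is thus not particular to the members.

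**Figure D3:**
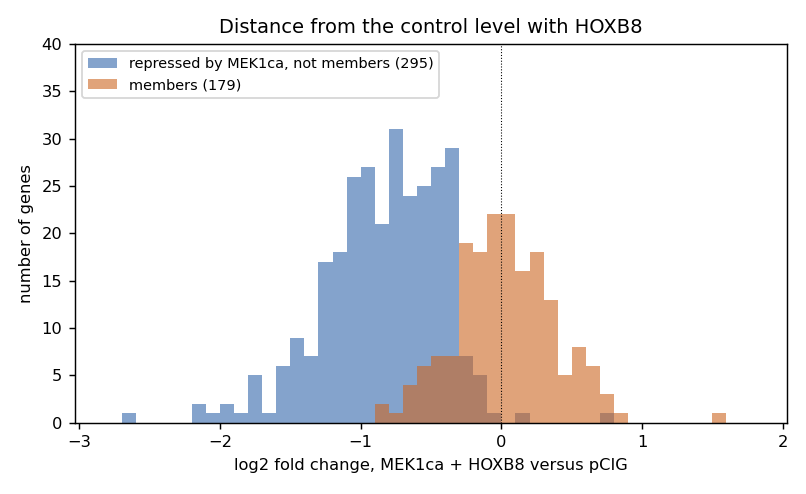
The histogram gives the number of genes by log2 fold change of MEK1ca + HOXB8 versus pCIG, for the 179 members and the 295 genes repressed by MEK1ca that are not members. Members run from -0.88 to 1.57 around a median of 0.02, and the other repressed genes have a median of -0.79.

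Between MEK1ca + HOXB8 and the control, edgeR called 8 members (4.47%), where it called 14.8% of all genes tested. The count was 18 with DESeq2's test and 22 at a threshold of 0.05 in edgeR. It fell, as did that of all genes, when either pCIG library was left out. The median log2 fold change of members was then -0.02 (replicate 1 left out) and 0.05 (replicate 2 left out). Of the 8, 5 members (2.79%, against 8.91% of all genes) were higher than pCIG. Fewer members, and fewer of all genes, were called higher without MEK1ca + HOXB8 replicate 1 or when either pCIG library was left out. The other 3 (1.68%, against 5.9%) were lower than pCIG. More members, and more of all genes, were called lower when either MEK1ca library was left out. Both counts fell without pCIG replicate 2. Of all genes, DESeq2's test called 1667 higher and 1395 lower than pCIG, and edgeR at 0.05 called 2234 higher and 1750 lower. A member that is not called may still differ from the control. The next counts are in CPM, which is not scaled by TMM. The TMM factors were 1.04 and 1.05 for MEK1ca + HOXB8 and 0.995 and 0.975 for pCIG. CPM thus places MEK1ca + HOXB8 higher against pCIG than the fit does. Both MEK1ca + HOXB8 libraries lay above both pCIG libraries in 68 members (38.0%, against 42.9% of all genes tested). They lay below both in 32 members (17.9%, against 23.1%). In the other 79 members the libraries of these groups overlapped. For 1 gene alone, 0.333 is the smallest two-sided p that exact permutation of 2 against 2 libraries allows, so the calls rest on the spread pooled over genes.

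The 3 members called lower than pCIG had returned in part. The gene at chr1:30483917-30503406 had 138 and 151 CPM in pCIG, 47.6 and 59.1 CPM in MEK1ca, and 91.6 and 84.3 CPM in MEK1ca + HOXB8. Its log2 fold change of MEK1ca + HOXB8 versus pCIG was -0.80 ± 0.11, and no library of one group overlapped another group. The gene at chr2:136370296-136490384, with 48 exon segments, had 48.7 and 45.8 CPM in pCIG, 16.9 and 20.1 CPM in MEK1ca, and 28.8 and 36.1 CPM in MEK1ca + HOXB8. The change against pCIG was -0.63 ± 0.13. The gene at chrZ:46263610-46283078 had 219 and 226 CPM in pCIG, 100.7 and 109.8 CPM in MEK1ca, and 159 and 168 CPM in MEK1ca + HOXB8. The change against pCIG was -0.53 ± 0.08, and all 3 groups were separate.

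By the ratio of CPM, 3 members stayed at 0.67 of pCIG or less with HOXB8, and only the gene at chr1:30483917-30503406 among them was called lower. The gene at chr3:110287063-110387161 had the lowest ratio, 0.598, with 9.35 and 8.87 CPM in pCIG, 3.19 and 3.17 CPM in MEK1ca, and 4.41 and 6.08 CPM in MEK1ca + HOXB8. The gene at chrZ:56172597-56274452 had 19.6 and 21.8 CPM in pCIG, 5.20 and 10 CPM in MEK1ca, and 12.6 and 14.1 CPM in MEK1ca + HOXB8. In both the MEK1ca + HOXB8 libraries lay between the other groups.

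At the other end, 17 members (9.50%) had 1.5 times the pCIG level or more with HOXB8, and the 5 called higher than pCIG were all of this class. The share of all genes at this ratio was not counted. The median level of the 17 members in pCIG was 8.41 CPM, which is low among members. The gene at chr1:121232735-121264871 was the most abundant of the 5, with 49.3 and 60.3 CPM in pCIG, 34.4 and 37.7 CPM in MEK1ca, and 104 and 97.2 CPM in MEK1ca + HOXB8. Its ratio of MEK1ca to pCIG, 0.662, was near the limit, so the rise above the control was the larger part of its pattern, at 0.79 ± 0.12. The gene at chr1:170265929-170402754 had 30.8 and 39.3 CPM in pCIG, 19.7 and 22.7 CPM in MEK1ca, and 67.1 and 55.5 CPM in MEK1ca + HOXB8. The gene at chr1:78926395-79112873 had 7.12 and 8.39 CPM in pCIG, 3.98 and 5.09 CPM in MEK1ca, and 14.4 and 14.8 CPM in MEK1ca + HOXB8. The gene at chr22:1561514-1572900 had 7.93 and 8.12 CPM in pCIG, 4.32 and 4.81 CPM in MEK1ca, and 15.3 and 13.8 CPM in MEK1ca + HOXB8. In each of these 4 genes the groups did not overlap, and the level with HOXB8 was the highest.

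The fifth, ENSGALG00000001879, had the strongest return of all members. It lies on the minus strand at chr6:1135083-1444647 and overlaps another gene on that strand, so that reads could be split between them. It had 4.91 and 5.35 CPM in pCIG, 2.88 and 3.30 CPM in MEK1ca, and 15.3 and 17.1 CPM in MEK1ca + HOXB8. The log2 fold change was -0.71 ± 0.19 in MEK1ca versus pCIG, which was not called, 2.29 ± 0.19 in MEK1ca + HOXB8 versus MEK1ca and 1.57 ± 0.18 in MEK1ca + HOXB8 versus pCIG. The first was called with DESeq2 (-0.71) and at a threshold of 0.05 in edgeR. In pCIG this gene was the least abundant member. Its pattern is thus a small difference under MEK1ca and a level with HOXB8 well above the control.

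The lowest fold change under MEK1ca was that of ENSGALG00000011205, on the minus strand at chr3:40939403-41033678 with 15 exon segments. It had 30.5 and 29.3 CPM in pCIG, 9.40 and 10.6 CPM in MEK1ca, and 25.0 and 16 CPM in MEK1ca + HOXB8, or 29.9 ± 0.794, 10.01 ± 0.867 and 20.5 ± 6.36 CPM (mean ± SD, n = 2). The log2 fold change was -1.56 ± 0.20 in MEK1ca versus pCIG and 0.93 ± 0.19 with HOXB8 versus MEK1ca, and edgeR called both. The 2 libraries with HOXB8 were far apart, and the second call was lost without MEK1ca + HOXB8 replicate 1 (0.56) and without any 1 library of MEK1ca or pCIG (0.85 to 1.00). Against pCIG this gene stood at -0.63 ± 0.19 with HOXB8, which was not called. The change was called with DESeq2 (-0.64) and at a threshold of 0.05 in edgeR, and it was -0.99 without MEK1ca + HOXB8 replicate 1.

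ENSGALG00000005967, on the plus strand at chr5:9538613-9582720, was next, with 12.8 and 11.6 CPM in pCIG, 3.05 and 5.32 CPM in MEK1ca, and 15.2 CPM in both MEK1ca + HOXB8 libraries. The log2 fold change was -1.52 ± 0.23 in MEK1ca versus pCIG and 1.75 ± 0.23 with HOXB8 versus MEK1ca, both called. The first call was lost without pCIG replicate 1 (-1.47) or pCIG replicate 2 (-1.57). The level with HOXB8 was 0.23 ± 0.22 from pCIG on the log2 scale, which was not called.

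The next highest return after ENSGALG00000001879 was that of ENSGALG00000011200, on the plus strand at chr3:40680694-40713177 with 22 exon segments. It had 12 and 10.3 CPM in pCIG, 5.99 and 3.58 CPM in MEK1ca, and 24.0 and 14.1 CPM in MEK1ca + HOXB8. The log2 fold change was -1.20 ± 0.30 in MEK1ca versus pCIG, which was not called, and 1.89 ± 0.30 with HOXB8 versus MEK1ca, which was called. The first was called with DESeq2 (-1.19) and without MEK1ca replicate 1 (-1.62). Replicate 1 was the higher library in all 3 groups, and with HOXB8 the libraries differed more than the pCIG and MEK1ca means did.

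**Figure D4:**
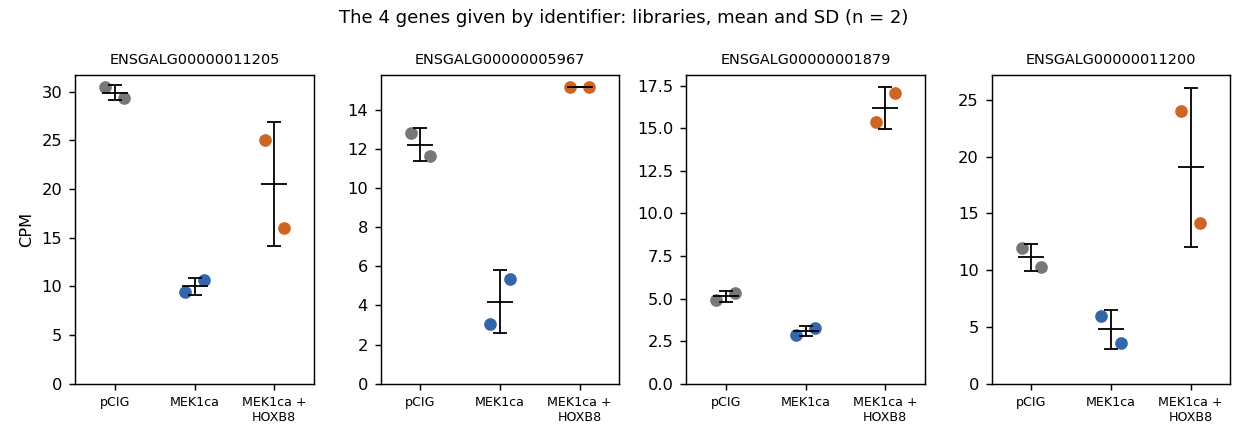
Points are the CPM of the 2 libraries of each group for the 4 genes given by identifier, with the mean as a horizontal bar and the SD as error bars (n = 2), on axes that start at 0. In each gene both MEK1ca libraries are the lowest, and ENSGALG00000001879 reaches 15.3 and 17.1 CPM with HOXB8 from 4.91 and 5.35 CPM in pCIG.

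Among the members that met the limits of 0.5 and 2, the gene at chr5:23292381-23294330, which has 1 exon segment, had 5.99 and 6.88 CPM in pCIG, 2.18 and 2.73 CPM in MEK1ca, and 8.39 and 9.25 CPM in MEK1ca + HOXB8. The gene at chr20:10990502-11029175 had 4.74 and 5.83 CPM in pCIG, 1.57 and 2.21 CPM in MEK1ca, and 5.95 and 7.26 CPM in MEK1ca + HOXB8. The gene at chr4:68063617-68230063, with 30 exon segments, had 28.7 and 36.4 CPM in pCIG, 10.7 and 13.7 CPM in MEK1ca, and 31.7 and 25.5 CPM in MEK1ca + HOXB8. In the last, the HOXB8 libraries fell on either side of the lower pCIG library. In the gene at chr17:5956541-5962675, which was called in neither comparison, the MEK1ca libraries had 3.79 and 9.05 CPM against 13.9 and 16.7 CPM in pCIG. That gene overlaps another on the same strand.

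Members were more frequent among genes of low level. They were 66 of 941 genes (7.01%) at 5 to 10 CPM in pCIG, 66 of 2262 (2.92%) at 10 to 30 CPM, 36 of 3464 (1.04%) at 30 to 100 CPM and 11 of 2610 (0.421%) at 100 CPM or more. As a share of the repressed genes they fell along the same order, from 57.4% to 39.8%, 29.8% and 15.3%. Ratios of low counts vary more, and the part of this in the order was not tested. The median ratio of MEK1ca + HOXB8 to pCIG was 1.16 in the lowest of these classes and 0.960 in the highest, and that of MEK1ca to pCIG was 0.579 and 0.548. For all genes of these levels, the ratios were not computed. The median ratio of MEK1ca + HOXB8 to pCIG was 1.07 for all genes tested, which include lower levels. It was 1.02 for genes at 5 CPM or more in pCIG.

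The 8 members with the highest TPM in pCIG included all 4 members with an exonic length of 200 bases or less, whose TPM is raised by the short length. Among the other 4, the gene at chr5:22947434-22948426 was the most abundant at 531 TPM. It had 200.2 and 201 CPM in pCIG, 114 and 139 CPM in MEK1ca, and 199 and 201 CPM in MEK1ca + HOXB8. The pCIG libraries of this gene lay within the range of those with HOXB8. The gene at chrZ:46263610-46283078 followed at 242 TPM, the one at chr1:30483917-30503406 at 188 TPM and the one at chr1:121232735-121264871 at 150 TPM. These 3 were among the 8 members called different from pCIG.

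The rule did not use the position of genes, and several members were neighbours on a chromosome, with no other counted gene between them. There were 12 such runs that held 28 members (15.6%), 9 of 2 genes, 2 of 3 genes and 1 of 4 genes. The 295 other repressed genes had 13 runs with 28 genes (9.49%), none of them of 4 genes. The difference was not tested. Of the 24 genes just outside the runs, 17 were tested and 8 had 5 CPM or more in pCIG. The log2 fold change of these 17 in MEK1ca versus pCIG had a median of -0.13 and ran from -1.25 to 0.75. The lowest value was that of a gene with 0.623 CPM or less in the pCIG and MEK1ca libraries.

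The run of 4 genes spans 328356 bases at chr1:30284796-30613151. Its genes alternate in strand, minus, plus, minus and plus, and none overlaps another. The first, at chr1:30284796-30405559, had 151 and 180.2 CPM in pCIG, 65.6 and 83.9 CPM in MEK1ca, and 164 and 142 CPM in MEK1ca + HOXB8. The second, at chr1:30472447-30476317, had 8.34 and 4.34 CPM in pCIG, 2.22 and 2.91 CPM in MEK1ca, and 5.25 and 5.67 CPM in MEK1ca + HOXB8. The third is the gene at chr1:30483917-30503406 that was called lower than pCIG with HOXB8. The last, at chr1:30541566-30613151, had 8.19 and 5.69 CPM in pCIG, 2.66 and 2.68 CPM in MEK1ca, and 6.71 and 5.84 CPM in MEK1ca + HOXB8. In this run 2 genes of high level alternate with 2 of low level, and the log2 fold changes under MEK1ca were alike at -1.13, -1.28, -1.42 and -1.36. All but the second were called. With HOXB8 the first, second and last stood at -0.20 ± 0.13, -0.30 ± 0.29 and -0.23 ± 0.23 from pCIG, and the third at -0.80 ± 0.11.

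Past the right end of this run, the gene at chr1:30694896-30801451 had 81.2 and 71.7 CPM in pCIG, 78.7 and 83.3 CPM in MEK1ca, and 64.0 and 78.8 CPM in MEK1ca + HOXB8. Its groups overlapped, and its log2 fold change under MEK1ca was 0.10 ± 0.11. Past the left end, the nearest tested gene, at chr1:30058954-30253610, was of very low level. It had 0.818 and 1.49 CPM in pCIG, 0.566 and 0.494 CPM in MEK1ca, and 2.76 and 1.87 CPM in MEK1ca + HOXB8. Its log2 fold change was -1.11 ± 0.41 under MEK1ca, which was not called, and 2.03 ± 0.41 with HOXB8 versus MEK1ca, which was. It was below the limit of 5 CPM, so it could not be a member. Its MEK1ca libraries were also the lowest, as in the 4 members. Its ratio of MEK1ca + HOXB8 to pCIG was 1.70, however, where the members of this run had 0.610 to 0.922.

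**Figure D5:**
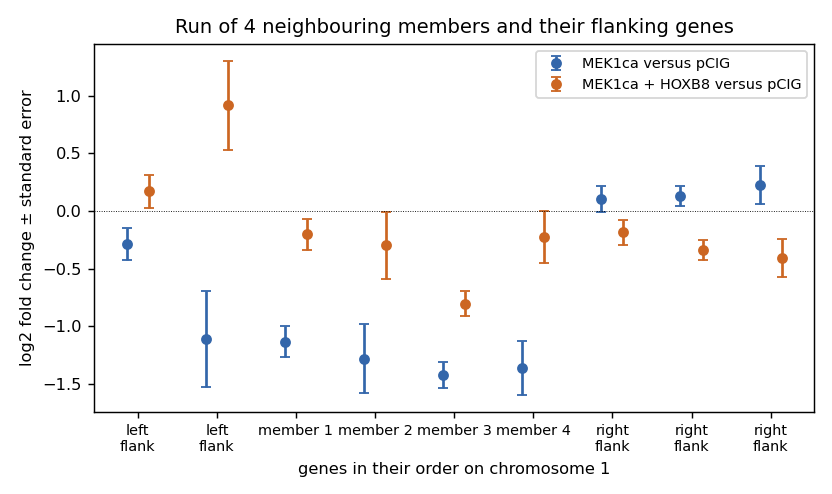
Log2 fold changes against pCIG with standard errors, in MEK1ca and in MEK1ca + HOXB8, for the run of 4 neighbouring members and the tested genes beside it, in their order on chromosome 1. The 4 members lie between -1.13 and -1.42 under MEK1ca. The nearest tested gene to their left, of very low level, lies at -1.11 and the next one at -0.29. The tested genes to their right lie at 0.10, 0.13 and 0.23.

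Another run holds ENSGALG00000011200 and ENSGALG00000011205, which have opposite strands, and spans chr3:40680694-41033678. These neighbours differ in how far they came back, at 0.69 ± 0.29 and -0.63 ± 0.19 from pCIG with HOXB8, and neither value was called. The values were 0.25 and -0.99 without MEK1ca + HOXB8 replicate 1, and 1.02 and -0.35 without MEK1ca + HOXB8 replicate 2. In a run of 3 genes at chr1:194007333-194256622 the genes also came back to unlike levels. Under HOXB8 its ratios to pCIG ran from 0.758 to 1.502. Its last gene had 6.99 and 8.61 CPM in pCIG, 4.10 and 4.96 CPM in MEK1ca, and 11.9 and 12 CPM in MEK1ca + HOXB8. In the run of 2 genes at chr8:6700429-6754418 the levels were far apart, and with HOXB8 both genes were near pCIG. The first gene had 10.4 and 7.63 CPM in pCIG, 2.37 and 3.92 CPM in MEK1ca, and 12.3 and 10.2 CPM in MEK1ca + HOXB8. The second had 200.4 and 188 CPM in pCIG, 95.3 and 117 CPM in MEK1ca, and 185 and 188 CPM in MEK1ca + HOXB8. In the run at chr2:106217640-106331401 the 2 genes overlap on the same strand, so their reads may be shared and they are not separate evidence.

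The run of 3 genes at chr1:100348483-100373705 is of another kind, since its genes are of 70, 153 and 150 bases in 1 exon segment each, all on the minus strand. The gene of 70 bases had 43.2 and 41.7 CPM in pCIG, 25.7 and 15.5 CPM in MEK1ca, and 59.4 and 35.6 CPM in MEK1ca + HOXB8. The gene of 153 bases had 15.0 and 20.5 CPM in pCIG, 12.7 and 9.71 CPM in MEK1ca, and 26.2 and 14.6 CPM in MEK1ca + HOXB8. The gene of 150 bases had 216 and 242 CPM in pCIG, 156 and 99.9 CPM in MEK1ca, and 311 and 195 CPM in MEK1ca + HOXB8. In all 3 genes replicate 1 was the higher library of MEK1ca and of MEK1ca + HOXB8, which for MEK1ca is the reverse of most members. Their edgeR adjusted p was 0.105, 0.217 and 0.155 in MEK1ca versus pCIG and 0.0457, 0.0861 and 0.0751 with HOXB8 versus MEK1ca, all above the threshold. A gene of 153 bases next to them, at chr1:100385781-100385933, had 2.65 and 3.45 CPM in pCIG, 2.26 and 3.61 CPM in MEK1ca, and 3.89 and 2.75 CPM in MEK1ca + HOXB8, and its groups overlapped. Such short genes are close to the length of a sequenced fragment, and reads of near-identical copies could be split among them, so these values are uncertain. The other short member, at chr13:13676142-13677119, has 138 bases in 2 exon segments. It had 13.9 and 15.4 CPM in pCIG, 6.87 and 9.71 CPM in MEK1ca, and 13.1 and 12.3 CPM in MEK1ca + HOXB8.

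In exonic length, members were close to the other genes of sufficient level, with a median of 2493 bases against 2473 bases for genes at 5 CPM or more in pCIG. They had fewer exon segments, with a median of 7 against 10. The 295 other repressed genes had medians of 2637 bases and 9 exon segments. A span on the chromosome under 5000 bases was found in 45 members (25.1%, against 18.4% of genes at 5 CPM or more in pCIG, 19.0% of the other repressed genes and 25.4% of all genes tested). A span of at least 100000 bases was found in 24 members (13.4%, against 7.64%, 15.9% and 7.09%). The share of long genes was thus as high among the other repressed genes. A single exon segment was found in 9 members (5.03%), against 1.96% of genes at 5 CPM or more in pCIG, 3.73% of the other repressed genes and 6.01% of all genes tested. The higher share of short genes thus holds against the genes above 5 CPM and the other repressed genes, and not against all genes tested. The higher share of single segments holds against the genes above 5 CPM, and not against all genes tested. Of the 9 members with a single segment, 3 have 200 bases or less and form the run on chromosome 1 whose values are uncertain. The excess of single segments over the other repressed genes rests on these 3 members. Chromosome 1 held 34 members (19.0%, against 13.6% of genes at 5 CPM or more in pCIG and 11.9% of the other repressed genes). Other chromosomes also held a higher share, such as 8 (5.59%, against 3.56% and 3.05%) and 27 (3.35%, against 1.52% and 1.02%). Some held a lower share, such as 18 (0.559%, against 2.37% and 3.73%). Chromosome Z held 9 members (5.03%, against 5.00% and 7.46%). These shares are descriptions and were not tested.

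The return did not vary much with size. The median ratio of MEK1ca + HOXB8 to pCIG was 1.06 for members with a span under 5000 bases, 1.08 for those of 5000 to 100000 bases and 1.096 for those of at least 100000 bases. The median ratio of MEK1ca to pCIG in these classes was 0.588, 0.570 and 0.576. Of all members, 23 overlap another gene in the annotation, 11 of them on the same strand. The sources do not say whether the counting used strand, and the reads of these 23 may belong in part to the overlapping gene.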

How the data were processed

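RNA of GFP-sorted neural tube cells was sequenced from 6 pools of embryos, 2 per condition, which the study describes as independent RNA samples. According to the submitters' processing notes, the tools were Subread and featureCounts, with DESeq2 or DESeq, on galGal4, and the labels name Ensembl 85. The authors deposited raw counts per gene with gene positions and exonic length. Versions, strand setting and treatment of multiple alignments were not given in the sources used here. The authors' own tables for the comparisons MEK1ca to pCIG and MEK1ca + HOXB8 to MEK1ca hold fold changes, a statistic and p-values, and were not used.

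Counts were fitted with edgeR 4.0.16 (limma 3.58.1) or DESeq2 1.42.0 under R 4.3.3. Tables and plots were made with pandas 2.3.3, numpy 2.4.6, scipy 1.17.1 and matplotlib 3.10.9 under Python 3.11.15. The deposited counts were divided by library totals for CPM, and by exonic length for TPM. Genes were filtered with filterByExpr by group, scaled by TMM (factors 0.965 to 1.05), and fitted in 6 libraries without a block (robust quasi-likelihood fit, common biological coefficient of variation 0.126). The fit was also run on counts simulated with known changes and with the spread that edgeR had estimated. That run does not show how the fit behaves with the even counts or with a library batch. Adjusted p-values were taken over all 13582 genes tested, and the threshold of 0.01 follows the study.

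The members, lists and tests were chosen with earlier results of these data known. By rule, the genes to be named were 3 that the paper names for this pattern (DBX2, LZTS1 and NELL2), the members with the strongest changes or highest TPM, and members of 13 lists (neuronal differentiation, patterning, signalling pathways, HOX genes, adhesion and others). No symbols were at hand, so the 3 genes, the lists and the cell type markers were not analysed here. By identifier, the 2 members with the lowest change under MEK1ca and the 2 with the highest with HOXB8 are given. Other positions were chosen after their values were seen. No sequences were used here. A run is a series of members that are adjacent when all genes of the count table are ordered by start position on their chromosome. Alternatives were other scalings, pseudocounts, thresholds and filters, DESeq2, a fit of the 4 libraries compared, a replicate block, and leaving out each library.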

Additional observations from a re-analysis of the deposited data

How the results depend on the processing

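No log2 fold change of a gene given by identifier changed sign under any alternative run. The rule gave 20 genes with limits of 0.5 and 2, 282 with a minimum of 1 CPM in pCIG and 113 with 10 CPM, and 145 to 347 on leaving out 1 library. TMM-scaled CPM gave 140 and DESeq2 size factors 135, all of them among the 179. With DESeq2's test the calls were 150 of the 179 in MEK1ca versus pCIG (620 lower genes of all, against 258) and 18 in MEK1ca + HOXB8 versus pCIG (1395 lower genes, against 801). With edgeR's threshold raised to 0.05 they were 151 and 22, with 719 and 1750 lower genes of all, 2234 genes higher than pCIG (against 1210), and 2307 genes higher in MEK1ca + HOXB8 versus MEK1ca (against 1187). On leaving out 1 library, members called ran from 27 to 80 in MEK1ca versus pCIG, from 64 to 105 in MEK1ca + HOXB8 versus MEK1ca and from 4 to 11 in MEK1ca + HOXB8 versus pCIG. The cause of these shifts was not tested.

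Over all genes, leaving out 1 library gave 77 to 294 genes lower under MEK1ca, 535 to 1089 higher with HOXB8 versus MEK1ca, and 451 to 1336 higher and 251 to 847 lower than pCIG. Scaling by library size alone moved the all-gene median of the log2 fold change from 0.02 to 0.12 in MEK1ca + HOXB8 versus MEK1ca and from 0.02 to 0.10 versus pCIG, left 497 genes lower than pCIG, and put the members' median versus pCIG at 0.11. With the replicate number as a block, the members called were 97, 120 and 9 in the 3 comparisons and the median versus pCIG was 0.02. Over all genes the block gave 315 lower under MEK1ca (against 258) and 1159 higher with HOXB8 versus MEK1ca (against 1187). It gave 1170 genes higher (against 1210) and 746 lower (against 801) than pCIG. The block changed 1 call of the genes given by identifier, that of ENSGALG00000011200 in MEK1ca versus pCIG (-1.25, called). The call of ENSGALG00000011205 with HOXB8 versus MEK1ca was lost in a fit of the 4 libraries compared (0.92). The numbers only name the libraries, with correlations of same-numbered deviations of 0.13, -0.11 and -0.03. Crossed pairing of the 4 libraries of MEK1ca + HOXB8 and pCIG, added after seeing the data, called 38 members, with 2224 higher and 1892 lower genes of all. With the counts of MEK1ca replicate 2 halved, edgeR called 71, 111 and 9 members in the 3 comparisons. Over all genes this gave 260 lower under MEK1ca, 1200 higher with HOXB8 versus MEK1ca, and 1263 higher and 818 lower than pCIG. The lowest count of a member in a library was 74, and members that were not called had lower levels than those called. The parts of counting error and of the spread between libraries were not tested.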
